A study of Mus musculus with 15 samples.

Results

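Lung metastases from mice on a methionine-adequate diet (3 libraries) were compared with those from mice on 3 test diets that changed methionine in either direction (12 libraries), which together are all 15 libraries of the study. Members were taken by their diet label. The comparison was the mean of the 3 test diet groups, each weighted equally, minus the adequate group, so a positive log2 fold change is higher in the test diets. B16-F10.1 is a pigmented mouse melanoma line that seeds the lung from the blood. C57BL/6J males were 8 weeks old when 100000 cells went into the tail vein, carried the tumours for 21 days on no named test diet, and were then fed the assigned diet for 2 weeks before metastatic tissue was taken for RNA. The groups were methionine adequate (n = 3), methionine supplemented to 300% (n = 6), methionine restricted to 25% (n = 3) and methionine deficient at 0% (n = 3), and every group carried the same line, strain and injection. The labels do not say whether each library came from its own mouse, so p-values measure only the spread between these samples, which may be technical. All tumours derive from 1 cell line, and the tissue holds host lung, blood and vessel cells beside tumour cells.

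Methionine is an essential amino acid that starts almost every protein and, as S-adenosylmethionine, donates the methyl groups placed on DNA, RNA, histones and many metabolites. After giving up its methyl group it becomes homocysteine, which is either remethylated with a folate-borne carbon or passed on to cysteine and glutathione. Cells short of amino acids switch on a transcriptional response through the kinase Gcn2 and the factor Atf4, with Asns as a classic target.

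The libraries held 13107649 to 29994249 expected counts each, and 16001 genes passed the filter on low counts. All 26 genes of a pigment cell list were present in all 15 libraries, with Tyrp1, an enzyme of melanin synthesis, between 82177 and 279526 counts. Host lung RNA varied far more: the mean log2 CPM (counts scaled to library size) of 16 alveolar type 2 cell genes was 4.49, 5.18 and 3.27 in the adequate libraries and ran from −0.67 to 7.78 in the others. Supplemented replicate 5 was the lowest of these and held 13640 counts of skeletal muscle actin Acta1 against at most 56 in any other library, and deficient replicate 3 was the highest. Adequate replicate 1 stood apart in another way: genes with a transcript length under 400 bases took 49.1% of its counts, against 24.2% and 23.5% in the other two adequate libraries and 15.02% to 30.4% in the 12 test diet libraries. Many main results and list medians that move with these 3 libraries are given with and without them, but not all.

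Few genes separated the adequate diet from the test diets. At an adjusted p under 0.05 (edgeR's quasi-likelihood test with Benjamini-Hochberg adjustment over all genes tested, used for every adjusted p below unless another tool is named), 13 gene IDs of 16001 were called (0.0812%). Of these, 3 were higher in the test diets (0.0187%) and 10 were lower (0.0625%). Those higher were Ddr2, Mfsd12 and Tap2. Those lower included Klf15, Pccb, Cirbp, the liver genes Alb and Serpina3k, and 4 IDs of short RNAs. Among them 12 IDs had adequate libraries wholly above or below the 12 others. Over all genes tested this held for 323 (2.02%), with the adequate libraries above in 1.04% and below in 0.981%. An unadjusted p under 0.05 was reached by 2250 genes (14.1%), of which the higher ones were 6.97% and the lower ones 7.09% of all genes tested. The number called depended on the tool: DESeq2 called 458 genes (2.86%), 271 higher (1.69%) and 187 lower (1.17%), and limma-voom called 22 (0.137%), 5 higher (0.0312%) and 17 lower (0.106%). Both included most of the 13, with 12 shared by DESeq2 and 11 by limma-voom. Leaving out single libraries moved the count from 1, without restricted replicate 2, to 135, without supplemented replicate 5, and the count was 175 without the 3 libraries that stood apart. All 13 remained called in both of the larger sets. The count also fell to 2 without restricted replicate 3, 3 without restricted replicate 1, 4 without adequate replicate 2 and 6 without supplemented replicate 3, and rose to 24 without adequate replicate 3.

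Ddr2 encodes a receptor tyrosine kinase that is activated by fibrillar collagen. Its scaled CPM was 65.1, 48.1 and 60.7 in the adequate libraries, 86.2 to 122.7 with a median of 109.7 in the supplemented group, 111.6, 126.7 and 100.1 in the restricted group and 130.8, 138.1 and 132.6 in the deficient group. Every test diet library lay above every adequate library. The means were 58.0 ± 8.81 (SD, n = 3), 109.1 ± 13.6 (SD, n = 6), 113 ± 13.4 (SD, n = 3) and 134 ± 3.8 (SD, n = 3). Ddr2 was 2.04-fold higher in the test diets, a log2 fold change of 1.03 with a standard error of 0.14 and an adjusted p of 0.0189. The adjusted p rose to 0.0724 without adequate replicate 2 and to 0.0508 without restricted replicate 2. In bulk tissue, more cells of a type and more RNA per cell cannot be told apart, and this holds for every gene below that host cells also express.

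Mfsd12, a transporter of the melanosome and lysosome membrane that carries cysteine into them, was the only gene of the 26-gene pigment list that was called. Its scaled CPM was 23.4, 23.02 and 14.2 in the adequate libraries, 31.7 to 41.5 with a median of 35.2 in the supplemented group, 45.7, 44.8 and 41.3 in the restricted group and 44.5, 36.6 and 45.0 in the deficient group. The groups did not overlap. The log2 fold change was 1.01 with a standard error of 0.16 and an adjusted p of 0.0207. The call was lost without adequate replicate 2 or 3, supplemented replicate 3, any of the 3 restricted libraries or deficient replicate 1, with adjusted p up to 0.0839.

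Tap2 encodes a subunit of the transporter that carries peptides into the endoplasmic reticulum for loading on MHC class I. Its scaled CPM was 23.6, 23.1 and 25.8 in the adequate libraries, 31.1 to 44.5 with a median of 36.7 in the supplemented group, 44.8, 40.6 and 56.8 in the restricted group and 53.4, 42.3 and 45.1 in the deficient group. Again no test diet library reached down to the adequate ones. The log2 fold change was 0.86 with a standard error of 0.15 and an adjusted p of 0.0482. This call was near the threshold: it held only without supplemented replicate 1 or 5, and leaving out any other library gave adjusted p up to 0.151. It was also lost with the 12 test diet libraries as 1 group (adjusted p = 0.0563) and without genes under 400 bases (0.0766).

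**Figure D1:**
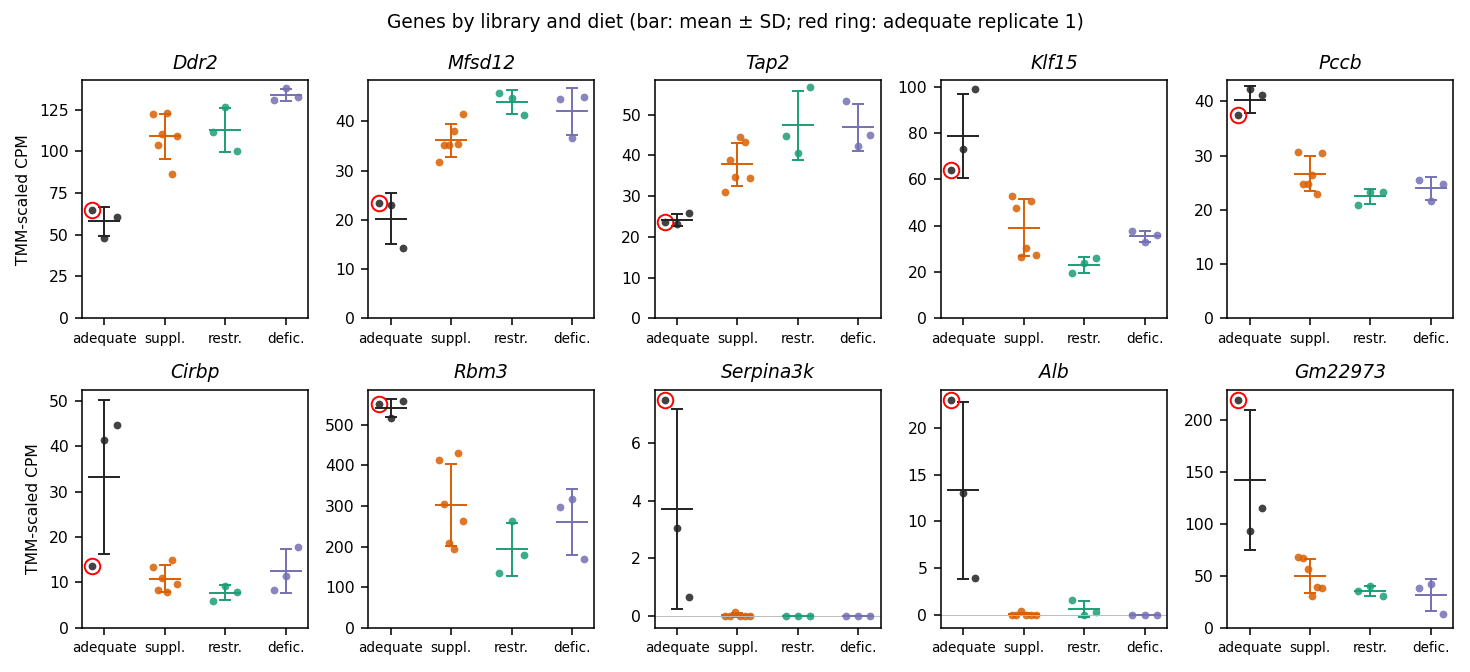
Scaled CPM (vertical axes, linear) of 10 genes in each library, grouped by diet; points are libraries, bars are the mean ± SD and the red ring marks adequate replicate 1. Ddr2, Mfsd12 and Tap2 lie lower in all 3 adequate libraries, while Klf15, Pccb, Rbm3, Alb, Serpina3k and Gm22973 lie higher, and for Cirbp adequate replicate 1 falls among the other diets.

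Klf15, a Krüppel-like transcription factor that is a glucocorticoid target and acts on amino acid breakdown, was lower in the test diets. Its scaled CPM was 63.9, 73.2 and 98.8 in the adequate libraries, 26.4 to 52.8 with a median of 39.0 in the supplemented group, 19.4, 23.9 and 25.9 in the restricted group and 37.5, 32.7 and 35.8 in the deficient group. The adequate libraries lay above all others, and the restricted libraries were the lowest 3 of the 15. Klf15 was 2.48-fold lower, a log2 fold change of −1.31 with a standard error of 0.20 and an adjusted p of 0.0189. The call was lost without adequate replicate 2 or 3 or any restricted library, with adjusted p up to 0.0724, and with the 12 test diet libraries treated as 1 group (adjusted p = 0.0563). Of 21 glucocorticoid-induced genes tested, 18 had a negative log2 fold change, against 7595 of all 16001 genes tested. Klf15 was the 1 called in edgeR. The list median was −0.25 (−0.07 without adequate replicate 2 and −0.41 without adequate replicate 3). Against the shared adequate libraries it was −0.30 in the supplemented and −0.48 in the restricted group, but 0.13 in the deficient group. Sgk1, a kinase that regulates sodium transport, had a log2 fold change of −0.80 (adjusted p = 0.245), and Fkbp5, a chaperone of the glucocorticoid receptor, had −0.36 (adjusted p = 0.561).

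Pccb encodes the beta subunit of propionyl-CoA carboxylase, which takes up the propionyl-CoA left by the breakdown of methionine, valine, isoleucine and threonine. Its scaled CPM was 37.5, 42.2 and 41.2 in the adequate libraries, 23 to 30.6 with a median of 25.6 in the supplemented group, 20.9, 23.3 and 23.2 in the restricted group and 25.6, 21.6 and 24.8 in the deficient group. The groups did not overlap, and the log2 fold change was −0.73 with a standard error of 0.12 and an adjusted p of 0.0285. The call was kept in 6 of the 15 fits that leave out 1 library (without adequate replicate 1, supplemented replicates 1, 5 and 6, and deficient replicates 1 and 3), and the adjusted p reached 0.150 without adequate replicate 2. The other 7 genes of the propionate pathway were not called: Pcca, the alpha subunit, had a log2 fold change of −0.16 (adjusted p = 0.846), and Mut, the cobalamin-dependent mutase at its end, had 0.07 (adjusted p = 0.842).

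Cirbp and Rbm3 encode the pair of RNA-binding proteins induced by mild cold. Scaled CPM of Cirbp was 13.7, 41.3 and 44.7 in the adequate libraries, 7.83 to 15 with a median of 10.2 in the supplemented group, 5.92, 9.23 and 7.83 in the restricted group and 8.30, 11.4 and 17.8 in the deficient group. Adequate replicate 1 thus lay among the test diets, and the other two adequate libraries lay well above them. The log2 fold change of Cirbp was −1.72 with a standard error of 0.29 and an adjusted p of 0.0332. The call was kept in 4 of the 15 fits that leave out 1 library (without adequate replicate 1, supplemented replicates 1 and 5, and deficient replicate 3): the adjusted p was 0.00955 without adequate replicate 1 and 0.151 without adequate replicate 2. In limma-voom it was 0.0535. Rbm3 stood at 552.8, 517 and 558.2 in the adequate libraries, 194.2 to 430.7 with a median of 283.5 in the supplemented group, 134.5, 263.7 and 180.3 in the restricted group and 296.4, 318.2 and 168.3 in the deficient group. Its libraries did not overlap, but with a log2 fold change of −1.13 it did not pass (adjusted p = 0.0783). It passed in DESeq2, at 0.00202, and in edgeR without supplemented replicate 5, at 0.0445.

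Most cartilage genes had lower values in the test diets, and none was called in edgeR with all libraries. DESeq2 called 2, against 1.17% of all genes called lower. EdgeR called 2 without supplemented replicate 5, and 0 without adequate replicate 1 or without the 3 libraries that stood apart. Of 9 tested, 8 had a negative log2 fold change, with a median of −0.81, while the median of all genes tested was 0.03. The cartilage median was −1.28 without deficient replicate 1. It was −0.56 without adequate replicate 1 and −0.53 without the 3 libraries that stood apart. Col2a1, the main collagen of cartilage, held 171, 250 and 17 counts in the adequate libraries and 3 to 50 in the others, with a log2 fold change of −3.25 (adjusted p = 0.0783). Hapln1, which links aggrecan to hyaluronan, stood at a scaled CPM of 41.96, 48.2 and 23.2 in the adequate libraries against 1.66 to 25.7, with a log2 fold change of −2.33 (adjusted p = 0.0799). Their libraries overlapped. The cartilage, cold-inducible and propionate lists were drawn up after the called genes were seen.

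Several transcripts that the liver makes for serum proteins were found almost only in the adequate libraries. Alb, serum albumin, held 364, 259 and 87 expected counts there. In the 12 test diet libraries it held 37 counts in all, 28 of them in restricted replicate 1, 5 in supplemented replicate 3 and 4 in restricted replicate 3, and 0 in the other 9. Serpina3k, a liver serine protease inhibitor, held 119, 61 and 14 counts in the adequate libraries and 2 counts in all others together, both in supplemented replicate 3. Both were called, each with an adjusted p of 0.0189. Both passed the filter on low counts only through the adequate libraries, so the direction of these calls is no support. DESeq2 called Alb and gave no adjusted p for Serpina3k. Fold changes against groups at or near 0 are not given. The calls were lost without adequate replicate 1 (adjusted p = 0.0763 for Alb and 0.0929 for Serpina3k), and also without adequate replicate 2, supplemented replicate 3 (0.108 for Serpina3k) and restricted replicates 2 and 3, and for Serpina3k without restricted replicate 1.

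The rest of the liver list followed the same order. Of its 25 genes, 25, 25 and 22 had at least 1 count in the adequate libraries, against 5 to 19 in the others, where restricted replicate 1 with 19 and supplemented replicate 3 with 13 came nearest. Serpina1a, an alpha-1 antitrypsin gene, held 47, 31 and 18 counts in the adequate libraries and 0 in all 12 others. Fgb, the fibrinogen beta chain, held 50, 33 and 15 counts and then 1 count in the 12 others together. Copies of the Serpina1 and Serpina3 families are near-identical, so the division of their counts is uncertain. Genes of the list with counts in every library did not follow: Trf, transferrin, held 4602, 4525 and 6053 counts in the adequate libraries and 2467 to 7564 in the others, and Hp, haptoglobin, held 361, 449 and 160 against 16 to 2388. The filter on low counts kept 15 of the 25, several of them only through the adequate libraries, so their direction is no support. With a CPM of at least 1 required in 12 libraries, the median log2 fold change of the list members left was 0.20. The 10 that the main filter removed include Mup20, a major urinary protein, with 4, 13 and 2 counts in the adequate libraries and 0 elsewhere. The source of these transcripts was not tested.

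**Figure D2:**
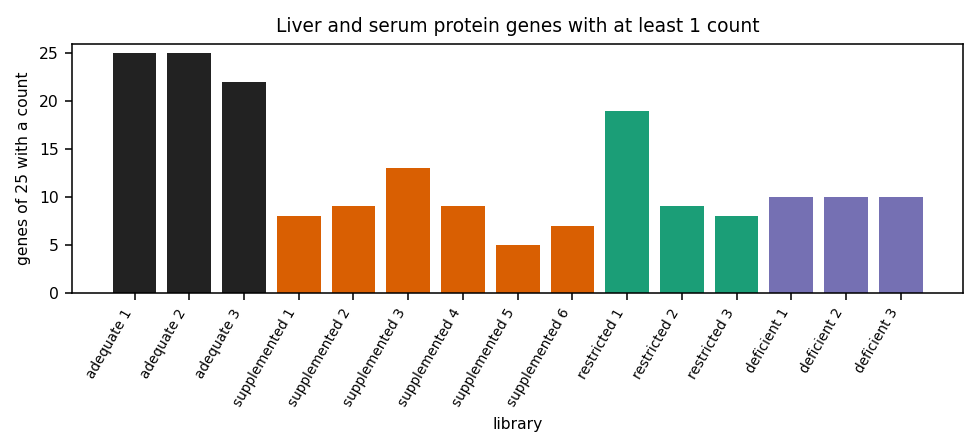
Number of the 25 liver and serum protein genes with at least 1 expected count (vertical axis, from 0) in each library (horizontal axis), coloured by diet. The 3 adequate libraries hold 25, 25 and 22 of them, and the highest of the 12 others, restricted replicate 1, holds 19.

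Short RNAs made up 4 of the calls, all lower in the test diets and all under 400 bases. Of 14 genes tested from a list of small structural RNAs, all 14 were negative and 0 were called in edgeR. Their median was −1.05, and −0.33 without adequate replicate 1. DESeq2 called 7 of these 14, against 1.17% of all genes called lower. Gm22973, a small nuclear RNA of 191 bases, stood at a scaled CPM of 219.2, 92.9 and 115.6 in the adequate libraries, 30.2 to 68.5 with a median of 47.9 in the supplemented group, 34.99, 40 and 30.6 in the restricted group and 38.5, 42.4 and 13.5 in the deficient group. Its log2 fold change was −1.90 (adjusted p = 0.0189). ENSMUSG00000075752, also of 191 bases and with no symbol in the table used, had a log2 fold change of −1.77 (adjusted p = 0.0285). ENSMUSG00000064447 and ENSMUSG00000064817, of 165 bases, held identical counts in every library, so the 13 IDs carry 12 separate sets of counts. All 4 lay wholly above the other diets in the adequate libraries. All 4 calls were lost without adequate replicate 1, with adjusted p of 0.104 for Gm22973, 0.104 for the identical pair and 0.123 for ENSMUSG00000075752. They were also lost without any 1 of the restricted libraries, and that of ENSMUSG00000075752 without adequate replicate 2, supplemented replicates 2, 3, 4 and 6 or deficient replicate 2 as well, and in limma-voom (adjusted p = 0.0527).

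A dependence on transcript length over all genes moved with the same library. For genes under 400 bases the median log2 fold change was −0.61, and for genes of 6000 bases or more it was 0.32. Without adequate replicate 1 these medians were −0.25 and 0.09. The 200 genes of smallest p that were lower in the test diets had a median length of 1313 bases and the 200 that were higher 3560, against 2260 for all genes tested. Without adequate replicate 1 the lengths were 2296 and 2455, against 2230. Small structural RNAs took 8.09%, 4.88% and 4.95% of counts in the adequate libraries and 3.35% to 4.76% in the others, so the groups did not overlap (two-sided exact permutation test over all 455 ways to choose 3 of the 15 libraries, p = 0.0022, the smallest it can give, and 0.0154 adjusted over 7 library measures). Without adequate replicate 1 the exact permutation p was 0.0769 over 91 ways.

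**Figure D3:**
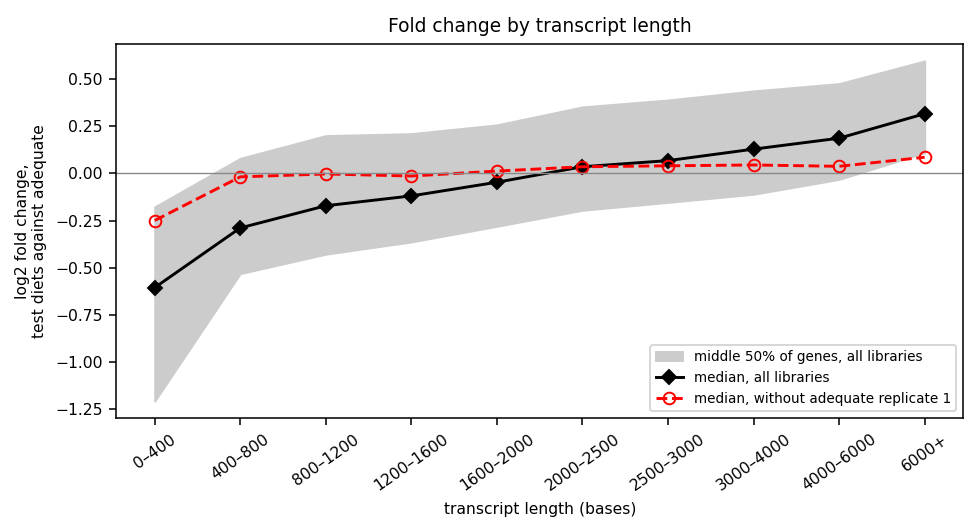
Median log2 fold change, test diets against adequate (vertical axis), over genes grouped by transcript length in bases (horizontal axis); the grey band holds the middle 50% of genes and the dashed red line repeats the medians without adequate replicate 1. The medians run from −0.61 for genes under 400 bases to 0.32 for genes of 6000 bases or more, and from −0.25 to 0.09 without that library.

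Most ribosomal protein and respiratory chain genes, which are short, had negative log2 fold changes with all libraries, and their medians were nearer 0 without that library. Of 59 cytosolic ribosomal protein genes tested, 58 had a negative log2 fold change, with a median of −0.39, and none was called in edgeR (18 had an unadjusted p under 0.05, and DESeq2 called 2). Rps28, a protein of the small subunit, stood at a scaled CPM of 125.6, 96.6 and 79.4 in the adequate libraries and 63.1 to 83.8 in the supplemented group. Its log2 fold change for the mean of the 3 test diets was −0.50 (adjusted p = 0.117). Adequate libraries lay wholly above or below the 12 others for 0 of the 59. Of 69 nuclear-encoded subunits of oxidative phosphorylation, 68 were negative, with a median of −0.42. None was called in edgeR, 35 had an unadjusted p under 0.05 and DESeq2 called 5. Over all genes tested 7.09% were lower with an unadjusted p under 0.05 in edgeR, and DESeq2 called 1.17% lower. Ndufa8, a complex I subunit, stood at 50.7, 35.9 and 38.2 in the adequate libraries and had a log2 fold change of −0.50 (adjusted p = 0.117). Adequate libraries lay wholly above the 12 others for 3 of the 69 respiratory chain genes, against 1.04% of all genes. Without adequate replicate 1 the medians were −0.04 for the ribosomal proteins and −0.12 for the respiratory chain. The mean log2 CPM of the ribosomal list was 8.36 in adequate replicate 1 and 7.58 and 7.54 in the other two, inside the range of the test diets, 7.02 to 7.84.

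Nearly all genes induced by interferon had higher values in the test diets, while none of them passed the test in edgeR. Interferons signal through Stat and Irf factors to antiviral effectors, and interferon gamma also drives MHC genes. Of 48 tested, 47 had a positive log2 fold change, against 52.5% of all genes tested, and their median was 0.70. In edgeR 0 were called and 29 had an unadjusted p under 0.05 in that direction, against 6.97% of all genes. DESeq2 called 14, against 1.69% of all genes called higher. Adequate libraries lay wholly below the others for 6 of the 48, against 0.981% of all genes. Unlike the short genes, this difference was larger without adequate replicate 1, with a median of 1.10, all 48 positive and 1 called. It was smaller without adequate replicate 2 or 3, with medians of 0.52 and 0.57. In edgeR 5 were called without supplemented replicate 5 and 13 without the 3 libraries that stood apart, all higher. Over all genes these fits called 0.849% and 1.1%. The mean log2 CPM of the list was 5.57, 4.61 and 4.78 in the adequate libraries and 5.32 to 6.35 in the others, so only adequate replicate 1 lay within their range. Against the adequate libraries, which all 3 comparisons share, the median was 0.48 for the supplemented, 0.84 for the restricted and 0.68 for the deficient group.

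The interferon genes of smallest p were sensors, effectors and regulators. Znfx1, a helicase that binds viral RNA, stood at a scaled CPM of 76.7, 111.9 and 125.2 in the adequate libraries, 133 to 202.8 with a median of 172.6 in the supplemented group, 251.7, 180.7 and 207.8 in the restricted group and 227.2, 163.4 and 193.8 in the deficient group. Nlrc5, the transactivator of MHC class I genes, stood at 17.6, 24.1 and 18.2 in the adequate libraries, 27.9 to 61.7 with a median of 41.6, then 37.3, 47.4 and 85.3, and 57.3, 37.6 and 46.9 in the same order of groups. Neither overlapped. The log2 fold changes were 0.88 for Znfx1 and 1.28 for Nlrc5, each with an adjusted p of 0.0783, and DESeq2 called both. Stat2, a transcription factor of type I interferon signalling, stood at 27.6, 15.5 and 22.3 in the adequate libraries, 33.7 to 47.4 with a median of 42.5 in the supplemented group, 50.6, 44.1 and 71.1 in the restricted group and 43.9, 23.9 and 42.01 in the deficient group. Its log2 fold change was 1.01 (adjusted p = 0.0799), with 1 deficient library inside the adequate range. The list was not uniform: Ifit1, which binds viral RNA caps, had 0.73 (adjusted p = 0.250), and Isg15, a ubiquitin-like modifier, had −0.04 (adjusted p = 0.975).

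Many promoters of this class carry the interferon-stimulated response element, to which Stat and Irf factors bind. The stretches below show it in genes near the threshold (Irgm2, Gbp7 and Stat2) and in genes far from it (Ifit1 and Isg15). The motif was searched as GAAA, any 2 bases, GAAA on both strands (read on the gene's strand as GAAA or TTTC pairs) in the 250 bases before each gene's start, from RefSeq promoters of build GRCm38.p6. It was found in 16 of the 36 interferon genes that matched the promoter table (44.4%) and in 376 of 11382 matched genes of all those tested (3.3%). Capitals mark the motif, each flanked by 15 bases, 5′ to 3′ on the gene's strand.
Irgm2 (chr11:58214898-58214937, + strand): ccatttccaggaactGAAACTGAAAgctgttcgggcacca
Gbp7 (chr3:142530268-142530307, + strand): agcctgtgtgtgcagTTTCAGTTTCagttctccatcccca
Stat2 (chr10:128270261-128270300, + strand): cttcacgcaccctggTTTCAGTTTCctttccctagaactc
Ifit1 (chr19:34640770-34640828, + strand): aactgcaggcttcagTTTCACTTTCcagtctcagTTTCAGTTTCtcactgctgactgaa
Isg15 (chr4:156200860-156200911, − strand): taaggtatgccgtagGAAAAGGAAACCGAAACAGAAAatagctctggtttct
Irgm2, an interferon-induced GTPase, had a log2 fold change of 0.97 (adjusted p = 0.0795), and Gbp7, a guanylate-binding protein, had 1.02 (adjusted p = 0.0799). Isg15, at −0.04, has 3 overlapping matches in its window and Irgm2 has 1. The match describes these letters and says nothing of what was bound.

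Of 23 antigen presentation genes tested, 20 had a positive log2 fold change, against 52.5% of all genes. Their median was 0.55, and 0.71 without adequate replicate 1. It was 0.46 without restricted replicate 3 and 0.46 without deficient replicate 3. Tap2 was the 1 called in edgeR, and DESeq2 called 4, against 1.69% of all genes called higher. Tap1, the other subunit of the peptide transporter, stood at a scaled CPM of 53.6, 51.2 and 52.7 in the adequate libraries, 55.7 to 100.1 with a median of 67.3 in the supplemented group, 82.8, 75.9 and 137.1 in the restricted group and 115.9, 80.0 and 86.4 in the deficient group. The adequate libraries were the lowest 3, with a log2 fold change of 0.74 (adjusted p = 0.138). Ciita, the master regulator of MHC class II, had 2.27 (adjusted p = 0.205) and Cd74, the invariant chain, 1.49 (adjusted p = 0.282). Markers of lymphocytes, which respond to and make interferon, were all 21 positive, with a median of 1.39 (0.80 without restricted replicate 3 and 0.98 without deficient replicate 3) and none called in edgeR (2 had an unadjusted p under 0.05, and DESeq2 called 0). Their mean log2 CPM was −0.66, −1.14 and −1.20 in the adequate libraries and −1.67 to 2.02 in the others. The part of these cells in the interferon values was not tested.

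**Figure D4:**
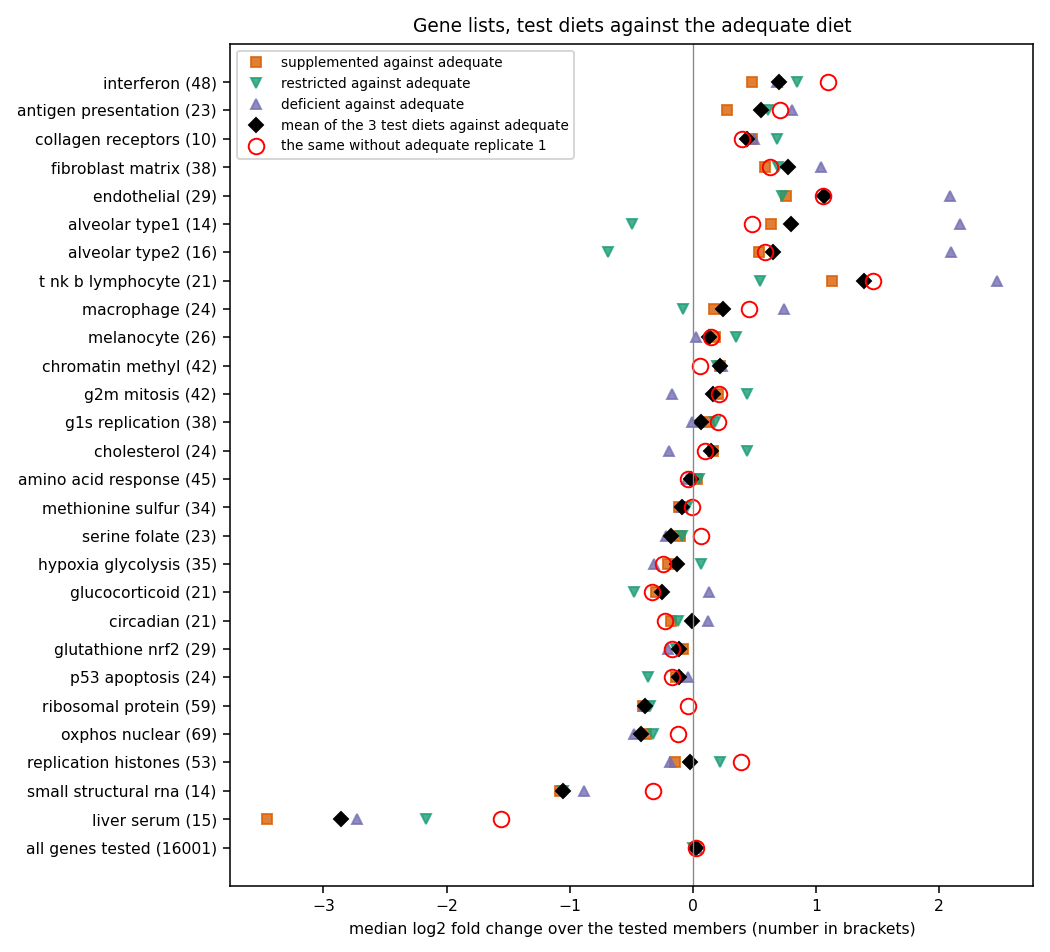
Median log2 fold change (horizontal axis) over the tested members of each gene list (vertical axis, number of members in brackets), for the mean of the 3 test diets, for each test diet alone, and for the mean without adequate replicate 1; all share the adequate libraries. Interferon, matrix and endothelial lists lie right of 0 with and without adequate replicate 1, while the ribosomal protein median moves from −0.39 to −0.04 when that library is left out.

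Most vessel and matrix genes also had higher values in the test diets, and in edgeR none of either list was called. All 29 endothelial genes tested had a positive log2 fold change, with a median of 1.06. It was 1.06 without adequate replicate 1, 0.70 without deficient replicate 3 and 0.68 without the 3 libraries that stood apart. In edgeR 17 had an unadjusted p under 0.05, all higher, against 6.97% of all genes in that direction. In edgeR 0 were called, and 2 without supplemented replicate 5, a fit that called 0.849% of all genes. DESeq2 called 6, against 1.69% of all genes called higher. Cd93, a receptor of growing vessels, stood at a scaled CPM of 42.02, 52.1 and 47.0 in the adequate libraries, 57.1 to 167.5 with a median of 111.4 in the supplemented group, 127.3, 124.8 and 105.0 in the restricted group and 118.7, 125.9 and 367.1 in the deficient group. It did not overlap, with a log2 fold change of 1.57 (adjusted p = 0.0949). Robo4, an endothelial guidance receptor, stood at 4.85, 9.83 and 6.91 in the adequate libraries and had 1.82 (adjusted p = 0.0783). Pcdh12, a protocadherin of endothelial junctions, stood at 1.95, 2.81 and 1.77 against 3.97 to 18.9 in the others and had 2.18 (adjusted p = 0.0783).

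Endothelial values also varied with host lung RNA, whose part in them was not tested. The median was 0.76 for the supplemented, 0.72 for the restricted and 2.09 for the deficient group, all against the same adequate libraries, and deficient replicate 3, richest in lung, had the highest list level at 6.71. The adequate libraries stood at 3.56, 3.94 and 3.47 and the others at 3.16 to 6.71, the lowest being supplemented replicate 5. Alveolar type 2 genes had a median of 0.65 (15 of 16 positive, 0 with an unadjusted p under 0.05 and 0 called by DESeq2), alveolar type 1 genes 0.80 and airway genes 1.43, and none of these 3 lists had a called gene in edgeR or DESeq2. Without deficient replicate 3 these medians were −0.11, 0.14 and 0.64. The type 2 median also ran from 0.22 without adequate replicate 3 to 1.17 without adequate replicate 2, was 0.35 without restricted replicate 3, and was −0.20 in limma-voom. The type 1 median was 0.48, 1.32 and 0.46 without adequate replicates 1, 2 and 3, and −0.14 without the 3 libraries that stood apart. Sftpc, the surfactant gene of type 2 cells, ran from a scaled CPM of 0.186 to 2159 across the test diets and stood at 256.2, 266.2 and 42.7 in the adequate libraries. With the alveolar type 2 level as a covariate in the edgeR fit, 169 genes were called, 76 higher and 93 lower, which is 1.06% of all genes in that fit, among them 7 of 48 interferon genes and 2 of 29 endothelial genes, all higher. All 13 IDs remained called in that fit.

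Among 38 genes of fibroblasts and their matrix, 33 were higher in the test diets, with a median of 0.78. In edgeR 17 had an unadjusted p under 0.05, all higher, against 6.97% of all genes in that direction. In edgeR 0 were called, and 4 without supplemented replicate 5, a fit that called 0.849% of all genes. DESeq2 called 9, against 1.69% of all genes called higher. Col6a3, a chain of collagen VI, stood at a scaled CPM of 20.9, 39.9 and 36.7 in the adequate libraries, 51.9 to 114.7 with a median of 66.5 in the supplemented group, 84.4, 89.5 and 58.4 in the restricted group and 63.7, 85.4 and 118.4 in the deficient group. Its groups did not overlap, and the log2 fold change was 1.32 (adjusted p = 0.0859). Tnc, tenascin C, had 1.89 (adjusted p = 0.133) and Postn, periostin, 1.37 (adjusted p = 0.172), both without overlap. The matrix median was 0.49 without the 3 libraries that stood apart. Beside Ddr2, 9 other collagen receptors were tested and none was called in edgeR. DESeq2 called 2 of the 10, against 1.69% of all genes called higher. The median of the 10 was 0.44, and 0.68 without adequate replicate 2. Mrc2, which takes up collagen for breakdown, had a log2 fold change of 1.95 (adjusted p = 0.157), from 3.91, 5.32 and 3.68 in the adequate libraries to 71.3 in deficient replicate 3. Ddr1, the epithelial relative of Ddr2, had 0.53 (adjusted p = 0.238), and the collagen-binding integrins were led by Itga1 at 0.96 (adjusted p = 0.288).

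**Figure D5:**
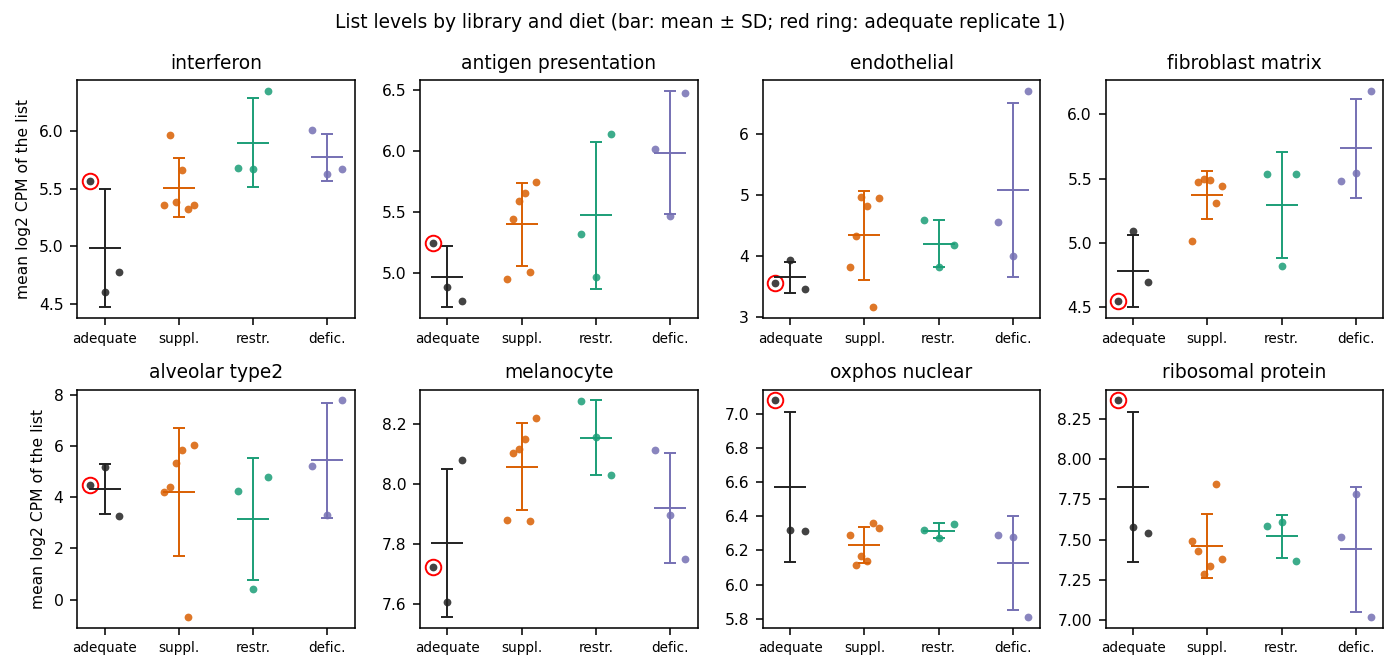
Mean log2 CPM (vertical axes) over the members of 8 gene lists in each library, grouped by diet; points are libraries, bars the mean ± SD and the red ring marks adequate replicate 1. The interferon and antigen presentation levels of adequate replicates 2 and 3 lie below the test diets, while the ribosomal and respiratory chain levels of those replicates lie among them.

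Genes of methionine use and of the response to amino acid shortage had no called member, and list medians of −0.09 and −0.01. Of 34 genes of the methionine cycle, transsulfuration and polyamines, 14 were above 0 with a median of −0.09. In edgeR 0 were called, and DESeq2 called 0. An unadjusted p under 0.05 in edgeR was reached by 7 of the 34, against 14.1% of all genes tested. Of these 7, 3 were higher and 4 were lower in the test diets. Mat2a, which makes S-adenosylmethionine, stood at a scaled CPM of 136.2, 90.0 and 93.6 in the adequate libraries, 70.2 to 120.1 with a median of 101.2 in the supplemented group, 113.2, 99.0 and 99.3 in the restricted group and 43.7, 110.4 and 73.6 in the deficient group. These overlapped, with a log2 fold change of −0.21 (adjusted p = 0.694). Mat2b, the regulatory subunit of the same enzyme, had the smallest p of the list, with 34.7, 23.8 and 23.6 in the adequate libraries against 14.5 to 22.95 in the others. It lay above all test diets and had −0.46 (adjusted p = 0.219).

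Asns, asparagine synthetase, stood at 163.9, 110.3 and 109 in the adequate libraries, 71.3 to 188.1 with a median of 102.4 in the supplemented group, 100.4, 145.5 and 113.8 in the restricted group and 134.9, 232.8 and 53.2 in the deficient group. The spread within the deficient group alone covered all 3 adequate libraries. The log2 fold change was −0.01 (adjusted p = 0.992) and turned to 0.19 without adequate replicate 1. Over 45 genes of the amino acid response the median was −0.01, with 21 above 0, 0 called in edgeR and 0 by DESeq2. In edgeR 2 of the 45 had an unadjusted p under 0.05, against 14.1% of all genes tested. Serine and folate genes had a median of −0.18 over 23 tested, and 0.07 without adequate replicate 1.

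Pigment, cell cycle and chromatin genes had medians between 0.06 and 0.22, where that of all genes was 0.03. The 26 pigment genes had a median of 0.13, which ran from 0.03 without adequate replicate 2 to 0.30 without adequate replicate 3, and Tyr, the tyrosinase that starts melanin synthesis, stood at 760, 521 and 815 in the adequate libraries against 362 to 711 in the others (log2 fold change −0.28, adjusted p = 0.506). Mki67, a proliferation marker with a transcript of 10080 bases, stood at 61.4, 94.7 and 198.3 in the adequate libraries against 157.7 to 240.0 in the others. Its log2 fold change was 0.72 (adjusted p = 0.229), and 0.40 without adequate replicate 1. It passed only without adequate replicate 3, the highest adequate library, at 1.32 (adjusted p = 0.0216). Over 42 genes of mitosis the median was 0.16, and over 38 of DNA replication 0.06. Without adequate replicate 2 these were −0.03 and −0.13, and without adequate replicate 1 both were 0.21. Of 42 enzymes that place or remove methyl groups on chromatin, 32 were above 0 with a median of 0.22, which was 0.06 without adequate replicate 1 and 0.35 without adequate replicate 3. Tet2, which oxidises methylcytosine, had 0.61 (adjusted p = 0.187) and Nsd1, a histone H3 lysine methyltransferase, 0.84 (adjusted p = 0.212), and both were lowest in adequate replicate 1.

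Each test diet alone gave fewer calls against the 3 adequate libraries, which the comparisons share. The supplemented and the restricted group each gave 0 in edgeR (1563 and 1468 genes had an unadjusted p under 0.05), and the deficient group gave 1 (0.00625%), which was Ddr2 with a log2 fold change of 1.21 and an adjusted p of 0.0435. For Ddr2 the log2 fold change was 0.91 in the supplemented and 0.96 in the restricted group. Klf15 had −1.01, −1.77 and −1.15 in the supplemented, restricted and deficient groups, and Pccb had −0.60, −0.84 and −0.75. Among the 3 test diets themselves edgeR called 0 genes (780 had an unadjusted p under 0.05), limma-voom 0 and DESeq2 6. Myc, the growth-promoting transcription factor, stood at 43.7, 40.4 and 41.5 in the adequate libraries, 48.7 to 74.3 with a median of 69.6 in the supplemented group, 83.4, 92.1 and 78.5 in the restricted group and 35.7, 46.2 and 39.0 in the deficient group. The deficient libraries overlapped the adequate ones and the restricted libraries were the highest. The log2 fold changes of Myc against adequate were 0.65, 1.02 and −0.06 (adjusted p = 0.288, 0.114 and 0.903), and the difference among the test diets had an adjusted p of 0.983.

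Outside these lists, the genes next in p that were higher in the test diets were Osbpl6, a lipid-binding protein of the oxysterol-binding family, Unc13b, which primes vesicles for release, the splicing factor Prpf40b, the interferon-induced helicase Helz2 and the zinc finger protein Zfp41. Osbpl6 stood at a scaled CPM of 17.9, 18.7 and 23.5 in the adequate libraries against 31.0 to 53.7, and Unc13b at 17.7, 8.58 and 16.3 against 20.1 to 38.3. Neither overlapped. Their log2 fold changes were 0.95 and 1.08, and those of Prpf40b, Helz2 and Zfp41 were 0.82, 1.12 and 0.93. All 5 had an adjusted p of 0.0783, and DESeq2 called each.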

How the data were processed

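The authors deposited 1 gene table per library with RSEM expected counts (estimated read numbers) and transcript lengths, covering 37620 Ensembl IDs. Bowtie2 2.2.9, RSEM 1.30 and edgeR were used with build NCBIM37, per the submitters' processing notes. Whether counting used strand is not given in the sources used here, so reads from overlapping antisense genes cannot be told apart. Expected counts were rounded, filtered with filterByExpr, scaled by TMM and tested with edgeR 4.0.16 (quasi-likelihood, 4 groups, 11 residual degrees of freedom) in R 4.3.3. The biological coefficient of variation was 0.461. Alternatives used DESeq2 1.42.0, limma 3.58.1, other filters and scalings, a covariate and leaving out libraries. Scripts were tested on simulated data. Log2 CPM uses a prior count of 2. Symbols matched 32897 IDs. Named genes were the 10 called genes with the largest change in each direction whose libraries did not overlap (mean log2 CPM of at least 1), or the 10 of smallest p where fewer than 5 were called, the 2 of smallest p in each list, and Ddr2, Klf15, Myc, Alb, Stat2, Mat2a, Asns, Tyr and Mki67. Others were named after their values were seen, and some genes that the rule picks are not reported here. The comparison, lists and genes were chosen with earlier results of these data known, so the counts per list are descriptions.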

Additional observations from a re-analysis of the deposited data

Results flagged for a closer look

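Within the 6 supplemented libraries, 55 sets of values were searched for a single library far from the rest, and 4 were found. Chance gives about 1 in 20 sets where sets are independent, but these share the same 6 libraries. Whether 4 is more than chance gives was not tested. Supplemented replicate 3 was alone in holding Alb (log2 CPM −1.11, all others at the floor of −3.28) and Serpina3k (−2.01, others −3.28), from 5 and 2 counts. The rate of 1 in 20 does not apply to these genes, because any count stands alone when all others sit at the floor. Supplemented replicate 5 was lowest in Sftpc (log2 CPM −1.79, the nearest at 6.79) and highest in the mean level of ribosomal protein genes (7.85, the nearest at 7.49). All 13 calls remained without supplemented replicate 5, and 6 remained without supplemented replicate 3.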

How the results depend on the processing

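The 13 calls were unchanged in number with DESeq2's size factors in edgeR and with TMM computed without small structural RNAs. With a CPM of at least 1 in 12 libraries, a filter that Alb and Serpina3k do not pass, the count was 10. It was 18 with the 12 test diet libraries as 1 group. It was 36 with no filter on low counts, 458 with DESeq2, 22 with limma-voom, 169 with the alveolar type 2 level as a covariate and 175 without adequate replicate 1, supplemented replicate 5 and deficient replicate 3. Without genes under 400 bases, an alternative chosen after seeing the data, it was 8. Against adequate alone, supplemented gave 0, restricted 0 and deficient 1. Leaving out 1 library gave 1 to 135. Of the log2 fold changes given for single genes, those of Asns and Sftpc changed sign. Asns went from −0.01 to 0.29 without the 3 libraries that stood apart, and ran from −0.21 to 0.19 when 1 library was left out. Sftpc went from 0.54 to −0.65 with limma-voom and −0.525 with the covariate, and ran from −0.20 to 0.87 when 1 library was left out. The cause was not tested. The adequate group has 3 libraries, 1 of which stands apart, and this limits every comparison. Low totals limit Alb and Serpina3k, which rest on 14 to 364 counts per adequate library. No paired analysis was possible because the labels number no replicates, and the numbers used here, given in accession order, only name libraries.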

Other observations

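Other lists held values not given above. Of 12 genes of red cells and platelets, 3 were above 0 with a median of −0.37 (−0.97 without deficient replicate 3, −0.59 without adequate replicate 1 and −0.24 without deficient replicate 2). Of 11 neutrophil genes 4 were above 0, with a median of −0.53 that turned to 0.06 without adequate replicate 2 and 0.43 with the 12 other libraries as 1 group, and was −1.07 without deficient replicate 3 and −0.94 without restricted replicate 3. None of either list was called in edgeR, where 1 and 0 genes had an unadjusted p under 0.05, or in DESeq2. Macrophage genes had a median of 0.25 over 24 tested, which was −0.02 without adequate replicate 3, 0.46 without adequate replicate 1, 0.13 without restricted replicate 3 and 0.14 without deficient replicate 3. Of 24 genes of the p53 response and apoptosis, 9 were above 0: Phlda3, a p53 target that restrains Akt, had a log2 fold change of −0.65 (adjusted p = 0.125) and its adequate libraries lay above all others. Of 21 clock genes 10 were above 0, with a median of −0.01. Without adequate replicate 1 their median was −0.22 with 3 above 0, and it was −0.38 without the 3 libraries that stood apart. Replication histones had a median of −0.02 over 53 tested, 0.39 without adequate replicate 1, where 1 of them was called higher, and −0.32 without adequate replicate 2.

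With the 3 libraries that stood apart left out, 13 of 48 interferon genes were called, all higher in the test diets (27.1% of the list, against 1.1% of all genes). Cirbp and Rbm3 were both called in that fit and without supplemented replicate 5 alone. The 3 libraries were picked from these same data. Among them adequate replicate 1 was the only adequate library within the test diet range of the interferon level. With all libraries 0 interferon genes were called, and 1 without adequate replicate 1 alone.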
